A study of Mus musculus with 93 samples.

Results

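The genes described here were 36 genes of the endoplasmic reticulum (ER), chosen by symbol as the chaperones that fold secreted proteins, the machinery of ER-associated degradation (ERAD), the sensors of the unfolded protein response and the channel through which new proteins enter the ER. Each symbol matched 1 row of a liver count table of 53465 genes. All 36 passed the filter on low counts that left 19110 genes for testing. The livers came from male mice of 7 inbred strains kept at thermoneutrality (30 °C) from 6 weeks of age. From 7 weeks of age, for 17 weeks, the mice ate either a Western diet (WD), in which fat gave 40% of the calories, or a matched control diet (CD), in which it gave 10%. C57BL/6J contributed 8 CD and 8 WD livers, DBA/2J 6 CD and 7 WD, A/J 5 CD and 6 WD, 129S1/SvImJ 7 CD and 6 WD, WSB/EiJ 6 CD and 6 WD, CAST/EiJ 7 CD and 8 WD, and PWK/PhJ 6 CD and 7 WD livers, 93 in all. No strain carried a transgene, and every mouse shared the warm housing, so no group here stands for ordinary room temperature.

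Between 40020424 and 49894856 reads per liver were counted on genes. Reads of all strains were mapped to the C57BL/6J genome, and the share that did not map ran from 1.66% to 14.8% of a library, with the highest shares in CAST/EiJ. A level that differs between strains and a sequence that maps less well cannot be told apart here. The share also differed by diet within strains. In PWK/PhJ it ran from 2.22% to 4.23% on CD and from 5.48% to 8.73% on WD. The mean went from 4.52% on CD to 7.42% on WD in WSB/EiJ and from 10.8% to 13.3% in CAST/EiJ. It was lower on WD in DBA/2J (6.45% and 4.77%) and in A/J (2.25% and 2.11%). The part of this in the diet effects, such as the falls in PWK/PhJ, was not tested. Each strain was raised in 2 cohorts (3 in CAST/EiJ) that contained CD as well as WD mice. WSB/EiJ mice were alone in their cohorts, so for WSB/EiJ the strain and the cohort cannot be told apart. Hepatocyte markers such as albumin (Alb) and apolipoprotein A-I (Apoa1) were abundant in every liver, the summed level of the marker list being 83781 to 240289 CPM, the counts scaled to an equal library total. The exons of Hsp90b1, Manf, Eif2ak3, Derl2, Sec61a1 and Ssr2 overlap those of annotated neighbours by over 200 bases, and whether the counting used strand is not known, so their levels can include reads of a neighbour.

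Hepatocytes secrete most of the proteins of blood plasma, and these enter the ER through the Sec61 channel. There the Hsp70 chaperone BiP (Hspa5), the Hsp90 chaperone Grp94 (Hsp90b1), the lectin chaperones calnexin and calreticulin and a family of disulfide isomerases fold them, and ERAD sends what stays misfolded back to the cytosol for destruction. When unfolded protein builds up, IRE1 (Ern1), ATF6 and PERK (Eif2ak3) start the unfolded protein response. IRE1 splices the mRNA of Xbp1 into the form that encodes an active transcription factor, ATF6 is cut to release another, and PERK slows translation. Both transcription factors bind promoters of the chaperone and ERAD genes. Counts per gene do not show the splicing of Xbp1 or the cutting of ATF6.

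The best known binding site of these factors is the ER stress response element (ERSE), in which CCAAT is followed by 9 bases of any kind and then CCACG, read here on either strand. RefSeq promoter windows (GRCm38.p6, 300 bases each, most of them before the start of the transcript) were at hand for 29 of the 36 genes, and not for Hyou1, Manf, Atf6, Derl1, Sec61a1, Ssr2 and Ostc. An exact ERSE stood in the windows of 9 of these 29 genes (31% against 0.137% of all 27025 genes with a window), namely Hspa5, Hsp90b1, Creld2, Dnajc3, Calr, Canx, Pdia6, Syvn1 and Derl3. The shorter ERSE-II, ATTGG and CCACG with 1 base between them, was in those of Dnajb11 and Herpud1 (0.0444% of all genes). The letters TGACGTGG, the core of the element first defined for ATF6 and XBP1, were in none of the 29 and in 0.714% of all genes. The letters CCACG alone, which an ERSE and an ERSE-II both hold, were in 24 of 29 (82.8% against 35.5% of all genes). A match is a run of letters and not a measured binding site. The stretches around the matches of 7 genes whose levels are described below are shown 5′ to 3′ in the direction of the gene. The Hspa5 stretch was chr2:34771985-34772083, plus strand. The Hsp90b1 stretch was chr10:86705513-86705676, minus strand. The Creld2 stretch was chr15:88819480-88819578, plus strand. The Calr stretch was chr8:84847035-84847133, minus strand. The Syvn1 stretch was chr19:6046492-6046575, plus strand. The Derl3 stretch was chr10:75893202-75893300, plus strand. The Herpud1 stretch was chr8:94386337-94386427, plus strand. Capitals mark both ends of an ERSE, CCAAT and CCACG or their complements, and in Herpud1 the whole ERSE-II. Hsp90b1 held 2 exact copies, 1 on each strand.
Hspa5: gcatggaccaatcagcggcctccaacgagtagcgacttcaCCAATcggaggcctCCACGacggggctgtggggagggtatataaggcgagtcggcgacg
Hsp90b1: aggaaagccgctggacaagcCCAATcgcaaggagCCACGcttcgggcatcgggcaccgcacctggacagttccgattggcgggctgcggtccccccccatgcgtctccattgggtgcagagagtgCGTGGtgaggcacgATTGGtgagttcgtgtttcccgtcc
Creld2: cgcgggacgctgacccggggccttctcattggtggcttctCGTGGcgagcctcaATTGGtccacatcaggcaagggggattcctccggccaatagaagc
Calr: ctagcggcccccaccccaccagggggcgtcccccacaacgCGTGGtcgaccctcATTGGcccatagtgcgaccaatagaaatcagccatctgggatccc
Syvn1: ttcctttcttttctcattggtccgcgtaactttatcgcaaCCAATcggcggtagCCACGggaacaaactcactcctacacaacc
Derl3: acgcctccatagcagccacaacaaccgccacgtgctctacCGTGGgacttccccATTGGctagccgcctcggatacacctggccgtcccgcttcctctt
Herpud1: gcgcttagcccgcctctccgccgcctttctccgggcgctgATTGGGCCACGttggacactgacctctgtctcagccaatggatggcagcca

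Per length of transcript, the most abundant of the 36 genes was P4hb, the beta subunit of prolyl 4-hydroxylase and itself a disulfide isomerase, with a median over the 93 mice of 438 FPKM (CPM divided by the kilobases of exon). Calr at 323, the isomerase Pdia3 at 179, Hspa5 at 167 and Hsp90b1 at 158 FPKM followed. The sensors were low for this set, with medians of 9.47 FPKM for Atf6, 9.19 for Ern1 and 2.59 for Eif2ak3, the lowest of the 36. By that measure they still lay above 83.5%, 83.2% and 62.2% of the genes tested. Xbp1, the substrate of IRE1, stood at 90.3 FPKM. The genes differed widely in how steady they were. Derl1, a component of the ERAD channel, ran from 112 to 166 CPM over all mice, a 1.48-fold range. Derl3, its inducible relative, ran from 0.616 to 52.3 CPM, an 85.0-fold range, and Sdf2l1, a co-chaperone of BiP, ran from 3.93 to 89.7 CPM, a 22.9-fold range.

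The question behind the CD mice was how far the strains differ before any dietary load. The level on CD differed between strains for 36 of 36 genes (limma-voom F test, adjusted p under 0.05 over all 19110 genes), as it did for 93.1% of all genes, so the count itself is not particular to them. Their directions varied by strain. Against the mean of the other 6 strains, 21 of 36 genes were higher and 1 lower in DBA/2J, where 22.9% of all genes were higher and 19.4% lower. In WSB/EiJ 24 were higher and 1 lower, beside 25.4% and 23.8% of all genes. In PWK/PhJ 21 were lower and 4 higher, beside 28.4% and 30.2%. The median log2 difference was 0.30 in DBA/2J, 0.29 in WSB/EiJ and -0.30 in PWK/PhJ, while the medians over all genes were 0.00, -0.01 and -0.01. In CAST/EiJ 9 were higher and 15 lower, beside 32.4% and 31.5% of all genes.

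Of the 9 luminal chaperones 8, all but Dnajb9, were higher in both DBA/2J and WSB/EiJ. Hspa5 on CD had a lowest, median and highest mouse of 900, 1412 and 2092 CPM in DBA/2J and of 976, 1256 and 1763 CPM in WSB/EiJ. In PWK/PhJ these values were 594, 644 and 708 CPM, and in 129S1/SvImJ 508, 619 and 687 CPM. Every DBA/2J and WSB/EiJ mouse on CD was thus above every PWK/PhJ and 129S1/SvImJ mouse. Against the other 6 strains Hspa5 was higher by 0.87 ± 0.19 (log2, SE) in DBA/2J (adjusted p = 0.000108) and 0.71 ± 0.19 in WSB/EiJ (adjusted p = 0.00125). Creld2, a secreted protein of the ER stress response, reached 72.8 to 162 CPM in DBA/2J and 78.5 to 169 CPM in WSB/EiJ, against 23.1 to 58.1 CPM in PWK/PhJ. Its differences were 1.23 ± 0.27 in DBA/2J (adjusted p = 8.75e-05), 1.18 ± 0.27 in WSB/EiJ (adjusted p = 0.000137) and -0.87 ± 0.27 in PWK/PhJ (adjusted p = 0.00394).

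Sdf2l1 split the strains in another way. Its median on CD was 55.5 CPM in DBA/2J and 29.5 CPM in WSB/EiJ, but 11.9 CPM in CAST/EiJ and 11.0 CPM in PWK/PhJ. It was 1.51 ± 0.18 (log2) above the other strains in DBA/2J (adjusted p = 3.85e-11), 1.26 ± 0.22 below them in CAST/EiJ and 1.08 ± 0.21 below them in PWK/PhJ. Derl3 spread furthest. Its lowest, median and highest CD mice were 11.9, 25.2 and 30.9 CPM in DBA/2J, 0.683, 0.851 and 4.30 CPM in PWK/PhJ and 0.616, 1.80 and 7.38 CPM in CAST/EiJ, and the DBA/2J mice overlapped neither of the other two groups. The log2 difference was 2.57 ± 0.28 in DBA/2J (adjusted p = 6.99e-13) and -2.46 ± 0.59 in PWK/PhJ (adjusted p = 0.000229). Plasma cells, which make much of this machinery too, are 1 possible source of such RNA in whole liver, and their part was not tested. The summed CPM of 12 plasma and B cell markers on CD ran from 35.5 to 63.9 in DBA/2J, 10.9 to 27.5 in WSB/EiJ, 25.0 to 42.4 in PWK/PhJ and 39.9 to 66.3 in A/J. Of the 11 markers tested, 10 were lower in WSB/EiJ than in the other strains and none higher, while 6 were higher in DBA/2J and none lower. In whole liver, fewer cells of a type and less RNA per cell cannot be told apart.

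**Figure D1:**
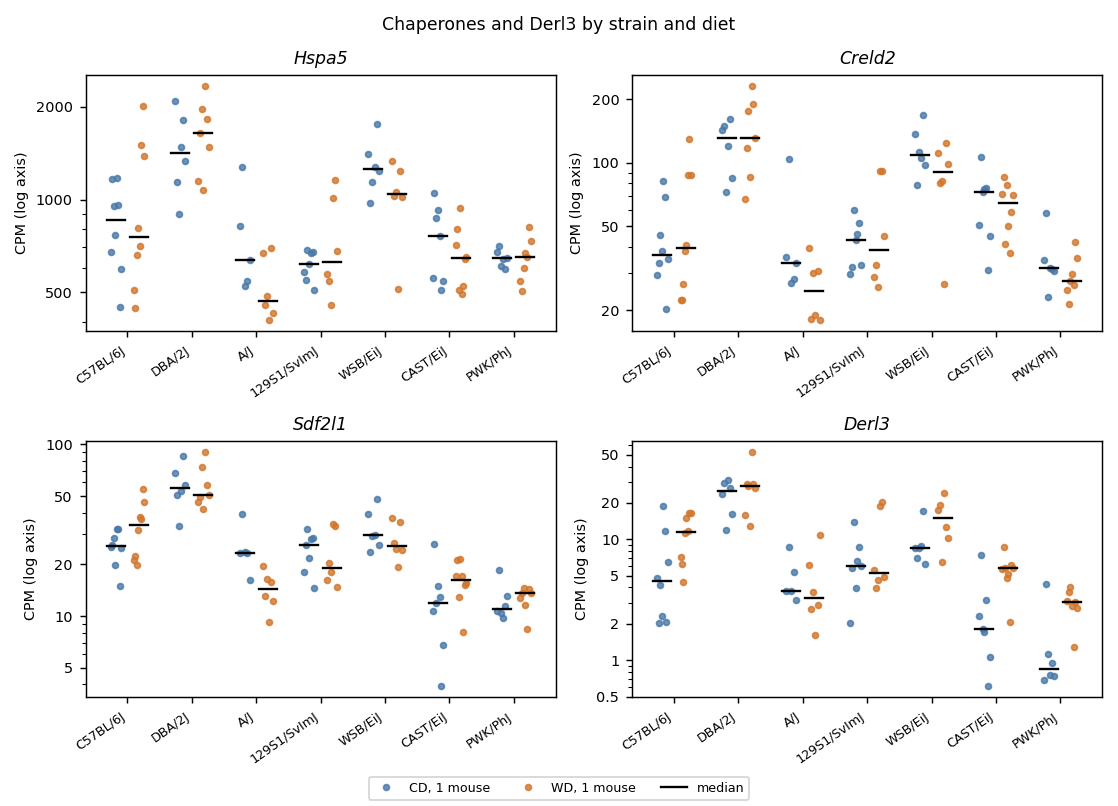
Levels of Hspa5, Creld2, Sdf2l1 and Derl3 in each mouse (points), by strain and diet, in CPM on a log axis, with the group median as a line. On CD all 4 genes had their highest median in DBA/2J, and Derl3 had its lowest, 0.851 CPM, in PWK/PhJ.

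Because strains came from different cohorts, the strains were also compared inside the cohorts they shared. In cohort 4, DBA/2J and CAST/EiJ mice on CD differed by a median of 0.96 (log2) over the 9 luminal chaperones, and by 0.94 when all their cohorts were pooled. In cohort 5, DBA/2J and 129S1/SvImJ differed by 1.05, and by 0.89 pooled. The DBA/2J excess was as large within these cohorts as over all of them. Some other pairs changed sign. C57BL/6J minus A/J was -0.45 in cohort 2 and 0.03 pooled, A/J minus 129S1/SvImJ was -0.21 in cohort 3 and 0.06 pooled, and CAST/EiJ minus PWK/PhJ was -0.04 in cohort 1, with 1 CAST/EiJ mouse, and 0.13 pooled. Others kept the sign but shifted in size. In cohort 3, A/J minus CAST/EiJ was -0.73 (-0.001 pooled) and 129S1/SvImJ minus CAST/EiJ was -0.57 (-0.10 pooled). A/J minus PWK/PhJ was 0.65 in cohort 2 and 0.16 pooled. C57BL/6J minus PWK/PhJ moved less, at 0.20 in cohort 1, 0.25 in cohort 2 and 0.16 pooled.

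The question behind the WD was which of these genes respond to diet, and in which strain. WD moved few of them in any 1 strain. More were called lower than higher in 5 strains, but not in C57BL/6J and DBA/2J. C57BL/6J had 3 genes called higher and 3 lower (limma-voom, adjusted p under 0.05), where 14.3% and 11.9% of all genes were. DBA/2J had 2 higher and 1 lower, beside 10.2% and 7.77% of all genes. For 129S1/SvImJ these were 1 and 5, beside 14.5% and 13.6%, and for WSB/EiJ 0 and 2, beside 4.97% and 3.97%. CAST/EiJ had 1 and 6, beside 9.77% and 9.73%, and PWK/PhJ had 1 and 6, beside 15.1% and 14.5%. In A/J none was higher and 10 were lower, beside 4.39% and 4.64%. The share called higher was thus under that of all genes in each of the 7 strains, and the share called lower was far above it in A/J alone. Averaged over the strains, 3 genes rose and 15 fell, where 27.1% of all genes were higher and 24.5% lower. The median log2 change of the 36 genes was 0.07 in C57BL/6J and DBA/2J, -0.07 in 129S1/SvImJ and CAST/EiJ, -0.11 in PWK/PhJ, -0.15 in WSB/EiJ and -0.26 in A/J.

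**Figure D2:**
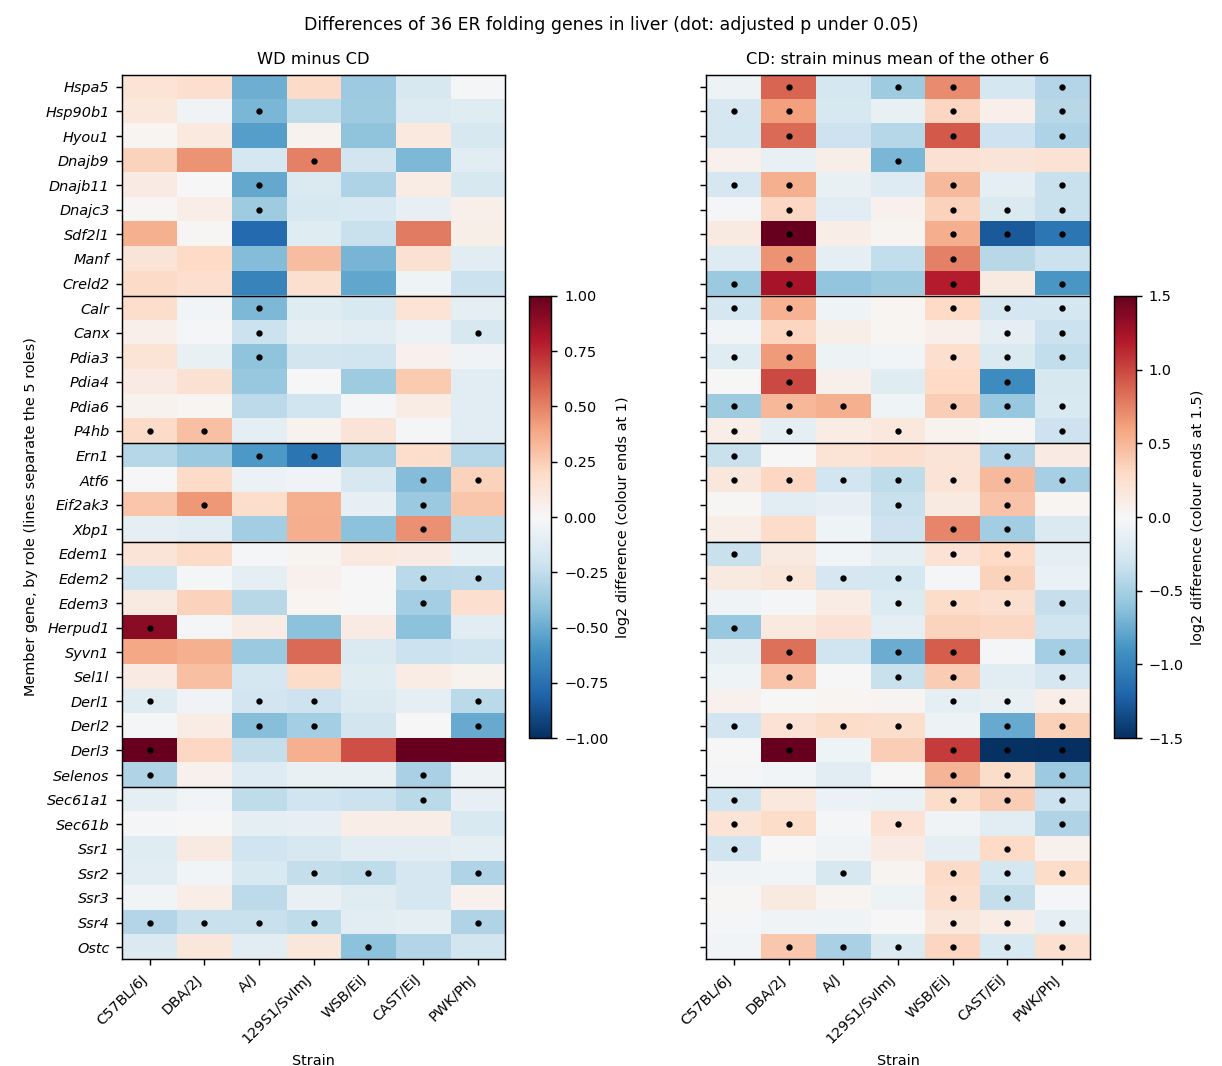
Log2 differences of the 36 genes, in rows by role, in each strain (columns), with WD minus CD on the left and, on CD, the strain minus the mean of the other 6 on the right. Dots mark adjusted p under 0.05. The DBA/2J and WSB/EiJ columns on the right are mostly red for the upper rows, and the left panel holds 10 dots for A/J, all on blue.

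The diet effect differed between the 7 strains for 11 of 36 genes, beside 37.5% of all genes. All 4 of the sensors and Xbp1 were among them, with 2 of 9 luminal chaperones, 2 of 6 lectin chaperones and isomerases, 3 of 10 ERAD genes and none of the 7 genes of the translocon group. For the 7 translocon genes the smallest adjusted p of that test was 0.0597 (Ostc). Over strains, 7 genes were called higher on WD in at least 1 strain (37.6% of all genes), 18 lower (34.9%) and 23 in either direction (67.1%), which leaves 13 called in none. Hspa5, Hyou1, Manf, Sdf2l1 and Creld2 were among those 13. Atf6 and Eif2ak3 were the 2 called in opposite directions in different strains, as 5.42% of all genes were.

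Among the luminal chaperones, Dnajb9, a BiP co-chaperone that also restrains IRE1, was called in 1 strain. In 129S1/SvImJ its lowest, median and highest mice were 37.9, 47.9 and 51.5 CPM on CD and 42.5, 65.7 and 99.7 CPM on WD, a rise of 0.50 ± 0.19 (log2, adjusted p = 0.0383) with overlapping groups. In CAST/EiJ the medians were 87.2 CPM on CD (lowest mouse 52.1) and 54.8 CPM on WD (46.0 to 79.2), a change of -0.45 ± 0.18 (adjusted p = 0.0592). The CAST/EiJ effect was 0.57 ± 0.19 below the mean effect elsewhere (adjusted p = 0.0339). Hsp90b1, which folds a small set of secreted and membrane proteins, fell in A/J, from 508 to 844 CPM on CD to 399 to 538 CPM on WD (-0.45 ± 0.15, adjusted p = 0.0367). In C57BL/6J it ran from 467 to 831 CPM on CD and from 436 to 966 CPM on WD (0.10 ± 0.12, adjusted p = 0.591). Sdf2l1 had its highest and lowest estimates in CAST/EiJ (0.52 ± 0.27, adjusted p = 0.173) and A/J (-0.78 ± 0.27, adjusted p = 0.0581), neither of them called. Its mice ran from 3.93 to 26.2 CPM on CD and from 8.11 to 21.6 CPM on WD in CAST/EiJ, and from 16.3 to 39.3 CPM and from 9.28 to 19.5 CPM in A/J.

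P4hb was the isomerase that rose. In DBA/2J every WD mouse, from 1265 to 1551 CPM with a median of 1314, was above every CD mouse, from 991 to 1239 CPM with a median of 1110 (0.30 ± 0.07, adjusted p = 0.000336). It also rose in C57BL/6J (0.19 ± 0.06, adjusted p = 0.0104). In PWK/PhJ it ran from 931 to 1058 CPM on CD and from 861 to 1007 CPM on WD (-0.12 ± 0.06, adjusted p = 0.171). The effect in DBA/2J was 0.28 above the mean of the other strains (adjusted p = 0.00682), and that in PWK/PhJ was 0.21 ± 0.07 below it (adjusted p = 0.0277). Calreticulin (Calr), the soluble lectin chaperone, separated the diets in A/J, where the median was 904 CPM on CD (highest mouse 1100) and 691 CPM on WD (604 to 770), with no overlap (-0.45 ± 0.11, adjusted p = 0.0035). In C57BL/6J it ran from 706 to 983 CPM on CD and from 718 to 1216 CPM on WD (0.17 ± 0.09, adjusted p = 0.16). Calnexin (Canx), its membrane-bound relative, fell in A/J, from a median of 440 to 381 CPM (-0.22 ± 0.07, adjusted p = 0.0266), and in PWK/PhJ (-0.16 ± 0.06, adjusted p = 0.0391), and in C57BL/6J its medians were 406 and 433 CPM (0.05 ± 0.06, adjusted p = 0.513).

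The sensors did not move together. Ern1, which encodes IRE1, fell over the mean of the strains by 0.34 ± 0.05 on the log2 scale (adjusted p = 1.16e-07). In 129S1/SvImJ the lowest, median and highest mice were 88.0, 93.5 and 128 CPM on CD and 52.9, 59.5 and 70.8 CPM on WD, so that the groups did not overlap (-0.73 ± 0.15, adjusted p = 5.96e-05). In A/J they were 87.3, 98.6 and 109 CPM on CD and 57.5, 65.5 and 75.1 CPM on WD, again with no overlap (-0.58 ± 0.16, adjusted p = 0.0108). CAST/EiJ stood apart, with 50.6, 66.3 and 94.0 CPM on CD and 68.0, 78.4 and 81.6 CPM on WD (0.17 ± 0.13, adjusted p = 0.408), and its effect was 0.60 ± 0.15 above that of the other strains (adjusted p = 0.00233).

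Atf6 and Eif2ak3 showed the reverse in CAST/EiJ. Atf6 there ran from 87.1 to 169 CPM with a median of 115 on CD and from 78.3 to 97.9 CPM with a median of 85.3 on WD (-0.44 ± 0.08, adjusted p = 5.53e-05). In PWK/PhJ it ran from 50.9 to 73.0 CPM on CD and from 66.8 to 84.0 CPM on WD, a rise of 0.23 ± 0.09 (adjusted p = 0.0393). Eif2ak3, which encodes PERK, rose in DBA/2J from a median of 13.2 CPM (11.2 to 20.6) to 18.1 CPM (15.2 to 23.4), by 0.43 ± 0.14 (adjusted p = 0.023). It fell in CAST/EiJ from a median of 19.7 CPM (17.1 to 22.3) to 14.9 CPM (13.2 to 21.1), by 0.37 ± 0.13 on the log2 scale (adjusted p = 0.0374). The CAST/EiJ effect was 0.46 ± 0.09 below that of the other strains for Atf6 (adjusted p = 0.000167) and 0.61 ± 0.15 below it for Eif2ak3 (adjusted p = 0.0019). Xbp1 was called higher in CAST/EiJ alone among the 7 strains tested, from a median of 205 to 307 CPM (0.46 ± 0.17, adjusted p = 0.0396). That effect was 0.60 above the other strains. In 129S1/SvImJ the Xbp1 estimate was 0.36 and was not called. On CD, with all cohorts pooled, CAST/EiJ had the lowest Xbp1 and Ern1 and the highest Atf6 and Eif2ak3 of the 7. Those CD mice also enter the WD effects, so the levels and the effects are not independent. Inside cohort 1, with 1 CAST/EiJ mouse, C57BL/6J minus CAST/EiJ was 0.18 for Atf6 and 0.09 for Eif2ak3, against -0.27 and -0.35 pooled. It was 0.09 for Xbp1, against 0.53 pooled, and 0.29 for Ern1, against 0.08. CAST/EiJ minus PWK/PhJ kept its sign there for Atf6, Eif2ak3 and Ern1, but for Xbp1 was 0.20, against -0.26 pooled. Among the CAST/EiJ diet effects called, only that of Atf6 did not have the same sign in all 3 cohorts.

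**Figure D3:**
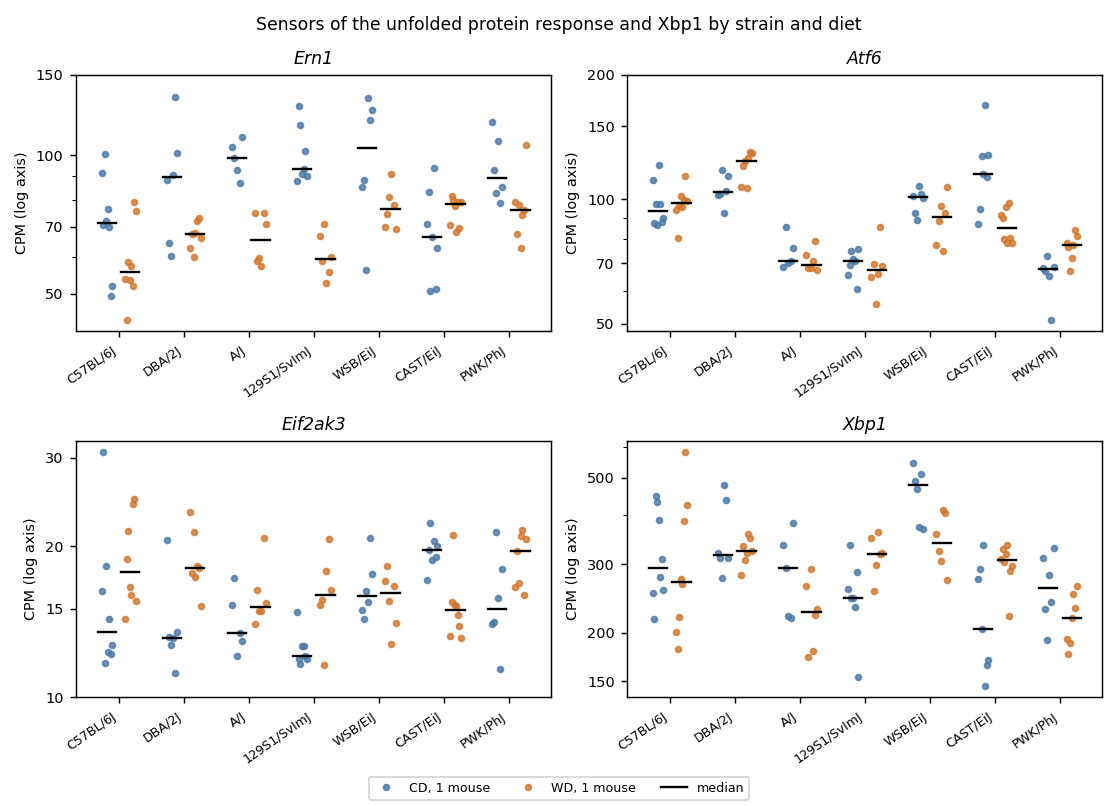
Levels of Ern1, Atf6, Eif2ak3 and Xbp1 in each mouse (points), by strain and diet, in CPM on a log axis, with group medians as lines. In CAST/EiJ the WD medians of Ern1 (78.4 CPM) and Xbp1 (307 CPM) lay above the CD medians, and those of Atf6 (85.3 CPM) and Eif2ak3 (14.9 CPM) below.

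Herpud1, which encodes a stress-induced organiser of the ERAD complex, had the largest called rise among the ERAD genes other than Derl3. In C57BL/6J its lowest, median and highest mice were 189, 238 and 303 CPM on CD and 233, 412 and 676 CPM on WD (0.90 ± 0.18, adjusted p = 8.97e-05). In CAST/EiJ they were 228, 401 and 881 CPM on CD and 231, 276 and 418 CPM on WD (-0.41 ± 0.19, adjusted p = 0.12). The C57BL/6J effect was 1.03 ± 0.20 above that of the other strains (adjusted p = 0.000612). Derl3 rose over the mean of the strains by 0.68 ± 0.18 (adjusted p = 0.00111), with 1.05 ± 0.37 in C57BL/6J (adjusted p = 0.025). Its estimates in CAST/EiJ and PWK/PhJ, 1.40 ± 0.56 and 1.36 ± 0.69, were larger but missed the threshold (adjusted p = 0.0665 and 0.131).

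The other Derlins fell. Derl2 went in PWK/PhJ from a median of 129 CPM (105 to 153) on CD to 92.4 CPM (79.7 to 96.2) on WD with no overlap (-0.51 ± 0.11, adjusted p = 9.93e-05), and it also fell in A/J by 0.43 ± 0.12 and in 129S1/SvImJ by 0.34 ± 0.11 on the log2 scale. In DBA/2J it ran from 89.2 to 161 CPM on CD and from 111 to 135 CPM on WD (0.07 ± 0.11, adjusted p = 0.707). Derl1 fell in 4 strains, by up to 0.27 ± 0.05 in PWK/PhJ, where CD mice ran from 144 to 152 CPM and WD mice from 119 to 126 CPM (adjusted p = 9.52e-06). In DBA/2J it ran from 127 to 153 CPM on CD and from 128 to 159 CPM on WD (-0.03 ± 0.05, adjusted p = 0.74). Edem2 was called lower in 2 strains, Selenos in 2 and Edem3 in 1, while Edem1, Syvn1, which encodes the ubiquitin ligase Hrd1, and Sel1l, its partner, were called in none.

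The genes of the translocon, the TRAP complex (Ssr1 to Ssr4), which helps proteins enter, and the oligosaccharyltransferase subunit Ostc were mostly lower on WD. For the mean over strains 6 of the 7 were lower and none higher, beside 24.5% of all genes lower, the exception being Sec61b. Ssr4 fell in 5 strains. In PWK/PhJ its lowest, median and highest mice were 63.2, 65.4 and 71.9 CPM on CD and 51.5, 53.6 and 57.5 CPM on WD, with no overlap (-0.30 ± 0.06, adjusted p = 1.6e-05). It was not called in WSB/EiJ (-0.11 ± 0.06, adjusted p = 0.3) or in CAST/EiJ, where the medians were 78.6 and 72.0 CPM (-0.10 ± 0.05, adjusted p = 0.191). Ssr2 fell in PWK/PhJ from 95.3 to 102 CPM on CD to 74.1 to 85.3 CPM on WD (-0.30 ± 0.08, adjusted p = 0.00289), and also in 129S1/SvImJ and WSB/EiJ. In DBA/2J its medians were 83.7 and 78.3 CPM (-0.03 ± 0.08, adjusted p = 0.889). Ostc fell in WSB/EiJ from a median of 64.7 CPM (51.7 to 83.6) to 48.7 CPM (highest mouse 56.3), by 0.41 ± 0.12 on the log2 scale (adjusted p = 0.024), and in DBA/2J its medians were 70.7 and 71.5 CPM (0.11 ± 0.12, adjusted p = 0.581).

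Hepatocyte markers were lower on WD too. Of 11 such markers tested, 10 were lower on WD for the mean over strains and none was higher, and their summed level went from 132705 to 159037 CPM on CD to 84550 to 113813 CPM on WD in PWK/PhJ and from 203372 to 240289 to 147152 to 173228 CPM in A/J. Macrophage and Kupffer cell markers moved the other way, with 10 of 12 higher for the mean and none lower, and 6 of 10 stellate cell and fibroblast markers were higher. The part of this shift in the falls of the ER genes was not tested.

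Genes of the same pathways outside the 36 were counted in the same way, where 27.1% of all genes were higher and 24.5% lower for the mean over strains. Of the listed genes, 17 of 31 other translocation, signal peptidase and glycosylation genes were lower and 2 higher, 9 of 18 other folding enzymes were lower and 2 higher, and 11 of 22 other ERAD genes were lower and 6 higher. Of 10 other stress transducers 3 were higher and 1 lower. Tusc3, an oligosaccharyltransferase subunit, rose by 0.54 ± 0.04 (log2), and Mogs, the glucosidase that trims new glycans first, fell by 0.26 ± 0.03 on that scale. In the PERK and ATF4 arm 2 of 10 were higher and 3 lower, and the 2 with the strongest tests parted. Atf4 itself fell by 0.45 ± 0.04 on the log2 scale (adjusted p = 4.6e-17), and Chac1, a glutathione-degrading target of that arm, rose by 1.08 ± 0.13 (adjusted p = 1.15e-10).

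The C57BL/6J average covered 2 cohorts that differed. Cohort 1 held 3 CD and 5 WD mice and cohort 2 held 5 CD and 3 WD mice. In cohort 2, 17 of 36 genes were higher on WD and none lower, where 7.35% of all genes were higher. In cohort 1, 8 were lower and 1, Herpud1, higher, where 9.71% of all genes were lower and 11.7% higher. The median change of the 36 genes was 0.40 (log2) in cohort 2, with 33 of 36 above 0, and -0.22 in cohort 1, with 5 of 36 above 0. A test of the difference between the cohorts' diet effects, chosen after the values had been seen, called 12 of 36 genes, all with the higher effect in cohort 2, beside 6.09% of all genes.

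Hspa5 shows the pattern. The 3 WD mice of cohort 2 had 1381, 1500 and 2008 CPM, above all 13 other C57BL/6J mice. The 5 WD mice of cohort 1 had 443, 508, 663, 705 and 807 CPM, the 3 CD mice of cohort 1 had 675, 951 and 1167 CPM, and the 5 CD mice of cohort 2 had 449, 593, 767, 963 and 1170 CPM. The CD mice of both cohorts thus overlapped, and the WD mice did not. The WD effect was 1.11 ± 0.26 (log2) in cohort 2 (adjusted p = 0.0015) and -0.57 ± 0.25 in cohort 1 (adjusted p = 0.0978), a difference of 1.68 ± 0.36 (adjusted p = 0.00182). Syvn1 had 201, 220 and 298 CPM in the 3 WD mice of cohort 2 and 61.8 to 166 CPM in the other 13, with a difference between cohorts of 1.71 ± 0.35 (adjusted p = 0.00118). Dnajb9 differed by 1.55 ± 0.28 (adjusted p = 0.000166), although 1 of its cohort 2 WD mice, at 92.6 CPM, lay below a CD mouse of cohort 1 at 130 CPM.

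In all, 11 of 36 genes had the 3 mice above the 13 others, beside 1.32% of all genes, and none had them below. They were Hspa5, Hyou1, Manf, Creld2, Calr, Canx, Pdia4, Edem1, Herpud1, Syvn1 and Sel1l. The 3 mice were singled out after the values had been seen. Most of these genes also vary together between mice, as described below, so the 11 are not independent observations. Herpud1 rose in both cohorts, by 0.61 ± 0.22 in cohort 1 (adjusted p = 0.0369) and by 1.42 ± 0.23 in cohort 2 (adjusted p = 4.76e-06). Selenos, an ERAD membrane protein, fell in cohort 1 by 0.72 ± 0.12 on the log2 scale (adjusted p = 5.48e-06) and was at 0.23 ± 0.12 in cohort 2 (adjusted p = 0.204), while it was called lower in the strain as a whole (-0.30 ± 0.10). Of the 10 genes of the PERK and ATF4 arm none was called for a difference between the cohorts, with a median of 0.12, which at 6.09% of all genes called is near the background.

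The 3 mice also had the largest shares of unmapped reads in the strain, 3.16%, 3.34% and 3.87%, where the other 13 ran from 1.66% to 3.00%. Their RNA integrity numbers, 8.0 to 8.9, lay within the range of the strain, 7.0 to 9.0. The summed plasma and B cell markers ran from 17.9 to 95.1 CPM over all 8 WD mice. Of the 11 tested 1, Cd22, was called, with the lower diet effect in cohort 2, and their median difference was -0.87 (log2). Of 11 hepatocyte markers, 2 had the higher diet effect in cohort 2 and none the lower. T and NK cell markers had a median difference of 0.82 (log2) between the cohorts, with Cd8a called of 10, and 3 of them were higher on WD in cohort 2 and 0 in cohort 1. Of 8 endothelial markers 2, Lyve1 and Fcgr2b, were called, in opposite directions, and no macrophage, stellate cell or cholangiocyte marker was called. The part of these in the cohort difference was not tested. Leaving out each C57BL/6J mouse in turn gave 7 to 16 genes called, all in the same direction, the 7 being without WD replicate 7, and 2.68% of all genes were called there.

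**Figure D4:**
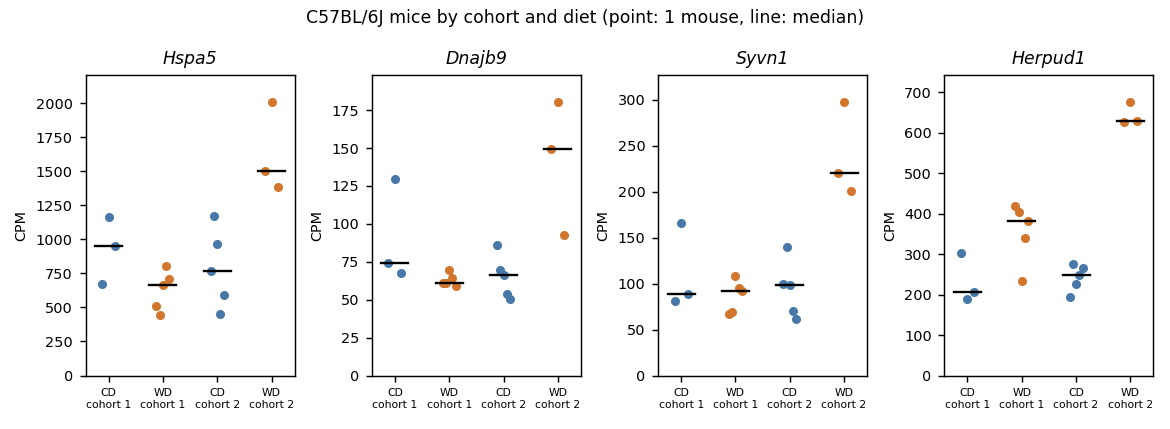
Levels of Hspa5, Dnajb9, Syvn1 and Herpud1 in the 16 C57BL/6J mice, in CPM on axes that start at 0, by cohort and diet, with each mouse as a point and the median as a line. The 3 WD mice of cohort 2 lie above all others for Hspa5, Syvn1 and Herpud1, and for Dnajb9 1 of them lies below a CD mouse of cohort 1.

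The 10 genes lower in A/J rested on few mice. Hspa5 on CD was 822 and 1274 CPM in the 2 mice of cohort 2 and 523, 543 and 636 CPM in the 3 of cohort 3, and on WD 408, 453, 486 and 670 CPM in cohort 2 and 428 and 696 CPM in cohort 3. Without CD replicate 2, the mouse at 1274 CPM, 3 genes were called in place of 10, and without WD replicate 4, the mouse at 408 CPM, 4 were. In cohort 2 alone 14 genes were lower and none higher, beside 3.57% and 2.68% of all genes. In cohort 3 alone, with 3 CD and 2 WD mice, none was called, and only 0.215% of all genes were. The difference between the cohorts was called for none of the 36 genes and for none of the 19110 tested. Even so, the effect was higher in cohort 3 than in cohort 2 for all 36 genes. The median difference was 0.32 (log2), against -0.002 over all genes. In the other 5 strains none of the 36 was called for a difference between cohorts, where at most 0.408% of all genes were, so these counts of calls are at the background. Their directions could still lean 1 way. In 129S1/SvImJ 33 of 36 were higher in cohort 5 than in cohort 3 (median 0.18). In CAST/EiJ 3 of 36 were higher in cohort 3 than in cohort 1, and in WSB/EiJ 9 of 36 were higher in cohort 7 than in cohort 6. The genes vary together between mice, so such counts are not independent.

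Within a strain and diet, mice differed in how much of the chaperone set they held. After the group mean had been taken from each mouse, 8 of the 9 luminal chaperones had a correlation of 0.78 to 0.98 with the mean of the other luminal chaperones over the 93 mice, with Hyou1, a large Hsp70 relative, at 0.98 and Hspa5 at 0.95. Dnajb9 was the exception at 0.42. The values were 0.81 to 0.97 without C57BL/6J, where Dnajb9 was at 0.27, and 0.76 to 0.97 after the mean of each strain, diet and cohort had been taken off, where it was at 0.20. The genes of a mouse share its library and normalization, and mice share cohorts, so no p-value is given. Outside that group, Pdia4 (0.92), Pdia3 (0.90), Sel1l (0.85), Calr (0.84) and Syvn1 (0.84) came next. Herpud1 (0.28), Eif2ak3 (0.30), Ern1 (0.33) and Atf6 (0.36) were lowest.

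Among all 19110 genes ranked by correlation with the mean of all the luminal chaperones, 13 of the first 20 belonged to the 36. Hyou1, Hspa5, Creld2, Manf, Dnajb11, Hsp90b1 and Sdf2l1 among them are parts of that mean, so their high rank was built in. Outside the 36, the first 20 included Ubxn4, Spcs2, Slc35b1, Hspa13, Tmed9, Gmppb and Sec23b. The 11 genes with an ERSE or ERSE-II in the window had a median correlation of 0.84 (0.28 to 0.95) and the 18 without had 0.58 (0.30 to 0.92). Both groups overlapped. Derl3 at 0.61 and Herpud1 at 0.28 had a match, and Pdia4 at 0.92, Pdia3 at 0.90, Sel1l at 0.85 and Sdf2l1 at 0.82 had none. Hspa5, Hsp90b1, Creld2, Dnajb11 and Dnajc3 among the 11 are luminal chaperones themselves, and among the 18 only Dnajb9 and Sdf2l1 are. The medians therefore cannot separate a match from membership of the luminal group. The 7 genes with no window had a median of 0.70 (0.36 to 0.98). The median residual SD among mice of a group was 0.44 (log2) for the luminal chaperones, 0.21 for the 36 genes and 0.29 for all genes, although Dnajc3 (0.19), Hsp90b1 (0.25) and Dnajb11 (0.25) lay below the last of these. The luminal mean had a within-group correlation of 0.29 with the share of unmapped reads, of -0.15 with RNA integrity, of 0.30 with the mean of the hepatocyte markers, of -0.29 with that of the stellate cell and fibroblast markers, of -0.17 with that of the cholangiocyte markers and of -0.02 with that of the plasma and B cell markers.

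**Figure D5:**
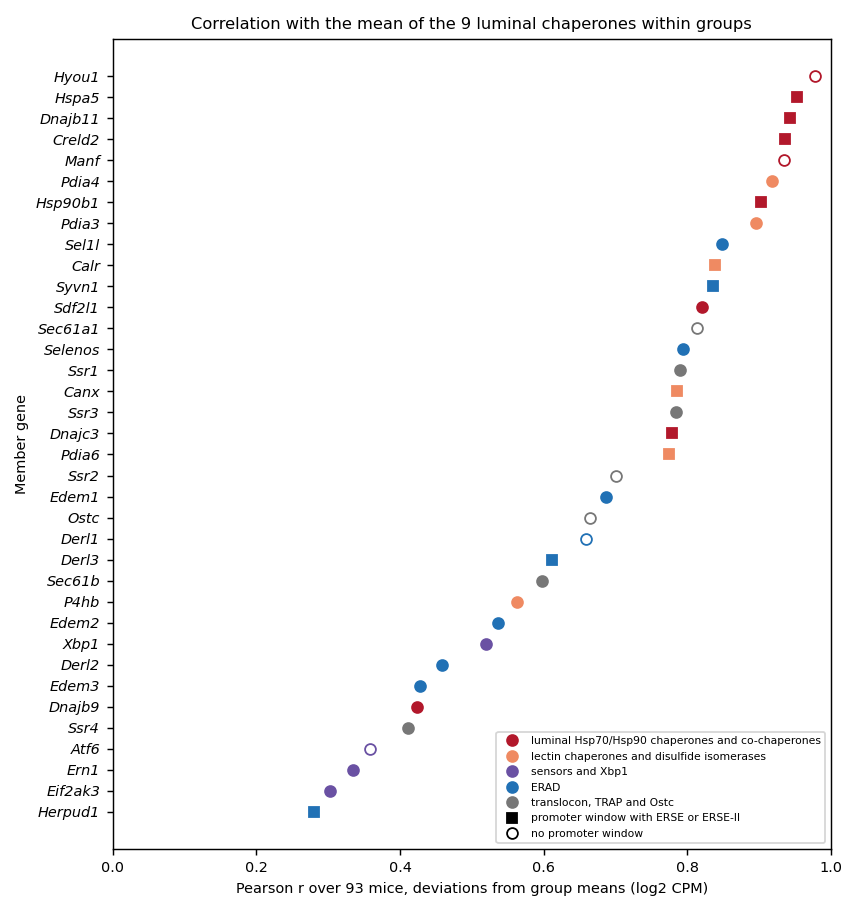
Pearson correlation of each of the 36 genes with the mean of the luminal chaperones over 93 mice, after group means were removed from log2 CPM. Colours give the role, squares mark an ERSE or ERSE-II in the promoter window and open circles genes with no window. The luminal chaperones other than Dnajb9 lie between 0.78 and 0.98.

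Over all 93 mice, strain took a median of 55.4% of the variance of the 36 genes, diet 1.84%, the strain by diet interaction 5.07% and the spread among mice of a group 36.3%. Over all genes these were 54.8%, 2.30%, 4.94% and 31.3%. The sensors and Xbp1 had the highest median interaction share of the 5 roles, 14.2%, while the luminal chaperones had a median of 0.308% for diet. Single genes of other roles were as high, with Herpud1 at 21.9%, Dnajb9 at 17.3% and Edem3 at 15.8%. The sensors and Xbp1 ran from 11.0% (Atf6) to 20.6% (Eif2ak3). Their median strain share was 24.2%, with a range from 11.0% (Eif2ak3) to 66.5% (Atf6).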

How the data were processed

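Livers of 93 male mice (7 strains, 2 diets) were sequenced from RNA. The authors mapped reads with STAR (2.7.1a per the labels) to GRCm38 and deposited raw counts per Ensembl gene. The annotation release and strand setting are not given in the sources used here, so reads of overlapping genes cannot be told apart. Symbols came from GENCODE M21 and promoter sequences from RefSeq.

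The counts were used as deposited. Genes were kept by edgeR (4.0.16) filterByExpr with a minimum count of 10, scaled by TMM and fitted with limma (3.58.1) voom, 1 mean for each of 14 groups, with Benjamini-Hochberg adjustment over 19110 genes and a threshold of 0.05. The members and lists were chosen with earlier results of these data known. The diet by cohort test was added after seeing the data. CPM use TMM-scaled library sizes, and FPKM divide them by union exon length. Scripts were tested on simulated data. Genes given in full were, in each of 5 roles, the 2 with the smallest p for a diet effect that differs between strains and 1 other with the smallest p for the mean effect, described in the strains with the highest and lowest change. From each other list at most 2 genes with the smallest p for the mean effect were named. Lists of plasma and B cells, macrophages, T and NK cells, stellate cells, endothelium, cholangiocytes and hepatocytes were also counted. Alternatives were edgeR quasi-likelihood, DESeq2 (1.42.0), other scaling, filters and covariates, separate fits and mice left out. The lowest counts of a member in any mouse were 24 reads for Derl3 and 153 for Sdf2l1. p-values measure the spread between mice of a group.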

Additional observations from a re-analysis of the deposited data

Results flagged for a closer look

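Among 210 groups of mice examined for a mouse far from the rest (3 genes in each of 5 roles, 14 groups), 14 held one by Dixon's 95% criterion, where chance gives about 1 in 20. The WSB/EiJ WD replicate 4 mouse was the lowest of its group for Hsp90b1 (507 CPM, the next at 644), Canx (363 CPM, the next at 404) and Herpud1 (259 CPM, the next at 399). PWK/PhJ CD replicate 5 was the lowest for Hsp90b1 (457 CPM, the next at 538) and Atf6 (50.9 CPM, the next at 65.1). DBA/2J WD replicate 5 was the highest for Calr (1538 CPM) and Derl1 (159 CPM, the next at 139). Eif2ak3 had a high mouse in 4 groups, at 21.1 CPM in CAST/EiJ WD, 30.8 CPM in C57BL/6J CD, 14.8 CPM in 129S1/SvImJ CD and 20.6 CPM in DBA/2J CD. The others were low mice, at 8.35 CPM for Sdf2l1 in PWK/PhJ WD, 1135 CPM for P4hb in C57BL/6J WD and 83.8 CPM for Ssr2 in WSB/EiJ CD.

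Of 105 diet effects compared with the mean effect of the other 6 strains (limma-voom, adjusted over all genes), 9 differed. In CAST/EiJ these were Dnajb9 (-0.57 on the log2 scale), Ern1 (0.60), Atf6 (-0.46) and Eif2ak3 (-0.61). In PWK/PhJ they were P4hb (-0.21), Atf6 (0.32) and Derl2 (-0.36). P4hb differed in DBA/2J (0.28) and Herpud1 in C57BL/6J (1.03). Of all 19110 genes, 2771 differed in this way in CAST/EiJ, 3113 in PWK/PhJ, 1485 in DBA/2J and 897 in C57BL/6J. In each of 5 roles, 2 of the 3 genes had been chosen by the smallest p for a diet effect that differs between strains. Differences among them were thus built in, and the 9 are no separate evidence.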

How the results depend on the processing

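Of 630 log2 fold changes of the genes given in full, recomputed under the alternatives, 589 kept their direction and side of the threshold, 20 lost the call, 19 gained one and 2 reversed. Most of these alternatives left out only 1 A/J mouse or 1 C57BL/6J cohort. Such a step could change little in strains that lost no mouse, so the 589 overstates how steady the values are. Both reversed with cohort 2 of C57BL/6J left out, Hsp90b1 to -0.083 and Canx to -0.059 in C57BL/6J, neither called at first. The leave-outs of cohorts were chosen after seeing the data. Genes called in C57BL/6J went from 6 to 19 without cohort 1 and to 2 with a separate fit for each strain. Those in DBA/2J went from 3 to 5 without either C57BL/6J cohort. Those in A/J went from 10 to 6 with genes of any count kept, and ranged from 3 to 11 with each A/J mouse left out. Those in WSB/EiJ went from 2 to 1 with upper-quartile scaling and to 0 with genes of any count kept. Separate fits gave 10 for 129S1/SvImJ (6 before) and 4 for CAST/EiJ (7 before). Genes whose diet effect differed between strains went from 11 to 17 with cohort as a term and to 28 without cohort 1 of C57BL/6J. For these counts within and between strains, the share of all genes called under each alternative is not given here. The shifts can therefore not be set against the background. Those that differed between the C57BL/6J cohorts ranged from 7 to 16 around 12. The causes were not tested. No paired analysis was possible because the labels give no replicate numbers that tie mice of different groups together. The strain effect on CD was called for all 36 genes under each alternative run. Reads of divergent strains mapped to 1 genome limit comparisons of level between strains, and bulk RNA limits those between cell types. The share of unmapped reads also differed between diets within strains, and its part in the diet effects was not tested.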
